A study of Mus musculus with 6 samples.

Results

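Tight junction RNA was examined in intestinal adenomas of mice that carried either of 2 mutant alleles of the tumour suppressor gene Apc. The genes were 7 claudins of the gut lining (Cldn1, Cldn2, Cldn3, Cldn4, Cldn7, Cldn15 and Cldn23) and 3 further junction genes, namely Ocln (occludin), Tjp1 (the scaffold ZO-1) and F11r (the adhesion molecule JAM-A). They were listed by symbol, with earlier results of these data known, and were 10 of the 34866 genes of the deposited table. Each of the 10 passed the filter on low counts. RNA-seq libraries had been made from adenomas cut out of C57BL/6J mice between 100 and 120 days of age. Of these, 3 came from mice heterozygous for Apc1322T (Apc1322T/+) and 3 from mice heterozygous for ApcMin (ApcMin/+). ApcMin is taken as a loss-of-function allele, whereas the truncated protein made from Apc1322T keeps part of its ability to restrain β-catenin. Both alleles are germline mutations, so every cell of the host carried them. Adenomas of ApcMin mice are described as arising by loss of the remaining normal allele, which was not examined in these libraries. A sample could combine RNA prepared separately from several adenomas of an animal. The labels did not say whether replicates of a genotype were separate mice, and the p-values below measure the spread between these libraries.

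The tight junction is the band of contacts that closes the space between neighbouring epithelial cells near their upper surface. Claudins are the proteins that form its strands. Some of them seal the strand against ions (claudin-1 and claudin-3 among them), and others line pores within it. Claudin-2 and claudin-15 form pores for small cations, which let sodium return to the lumen of the small intestine, where it is needed for the uptake of glucose. Occludin and JAM-A sit in the same membrane, and ZO-1 lies beneath it, where it ties claudins to the actin cytoskeleton. Claudin-7 is also found along the sides of intestinal cells, where it is bound by the adhesion protein EpCAM.

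The libraries held between 23132461 and 33518324 estimated counts. The tissue label was checked against marker lists. All 8 epithelium markers (among them Epcam, Krt8 and Vil1) passed the filter, and they summed to between 12870 and 19810 CPM (CPM, counts scaled to the library total after TMM normalisation, which assumes that most genes do not differ between libraries). Stromal, endothelial, smooth muscle and immune markers were present in every library as well. The 7 stroma markers (fibroblast genes such as Col1a1) summed to 626 to 1563 CPM in Apc1322T and 1012 to 3361 CPM in ApcMin adenomas. In such bulk tissue, fewer cells of a type and less RNA per cell cannot be told apart. ApcMin replicates 1 and 2 stood apart by the bile acid binding protein gene Fabp6 of the distal small intestine (log2 CPM 6.99 and 6.37, against 0.075 in ApcMin replicate 3 and at most -0.53 in the Apc1322T libraries). Of the other listed markers of this region, Slc10a2 and Mep1a were also highest in these libraries. Slc51a, Slc51b and Cubn did not set them apart, as ApcMin replicate 1 lay below Apc1322T replicate 3. The squamous keratin gene Krt14 was above all Apc1322T libraries in all 3 ApcMin libraries. Of the 6 squamous markers that passed the filter, 3 lay wholly above the Apc1322T libraries (11% of all genes). Another, Dsg3, lay wholly below them (9.96% of all genes).

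Levels of different genes were compared only after division by gene length (CPM per kilobase of annotated exon). Cldn7 was the most abundant of the 10 genes, with a mean of 370 CPM per kilobase over the 6 libraries (range 274 to 460). Cldn4, Cldn3 and Cldn2 followed with means of 274, 243 and 210 CPM per kilobase. These 3 genes lay close together, since Cldn4 exceeded Cldn3 in 5 of 6 libraries and Cldn3 exceeded Cldn2 in 4 of 6. F11r (139 CPM per kilobase) and Cldn15 (69.6) came next, each below its upper neighbour in 6 of 6 libraries. Cldn23, Ocln and Tjp1 were much lower, at 21.7, 20.3 and 14.1 CPM per kilobase. Cldn1, a sealing claudin, stood last with 0.874 CPM per kilobase (range 0.427 to 1.53). This order held when the longest transcript of each gene was used as its length, a choice made after the data were seen. With the median transcript length only Cldn1 kept its place, as this length is short for genes with many partial transcripts. On that scale Cldn2 came first and F11r stood 2 places higher.

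Claudin RNA in these adenomas was thus dominated by a few genes. The 7 claudins studied made up between 98.1% and 98.7% of the summed level of 33 claudin genes, counted per kilobase of exon. Cldn7 alone held 30.7% ± 2.72 (SD, n = 3) of it in Apc1322T and 30.3% ± 2.44 (SD, n = 3) in ApcMin adenomas. For Cldn4 the shares were 21.3%, 21.2% and 21.2% in Apc1322T replicates 1, 2 and 3 and 19.8%, 26.5% and 27.5% in ApcMin replicates 1, 2 and 3. Of the 4 most abundant claudins Cldn3 varied least, between 17.4% and 21.1% over all libraries. The pore-forming claudins varied within each genotype. Cldn2 held 24.3%, 14.6% and 13.3% in the Apc1322T libraries and 19.6%, 12.95% and 20.9% in the ApcMin libraries. Cldn15 held 2.65%, 8.20% and 8.91% in Apc1322T and 5.30%, 5.34% and 2.91% in ApcMin adenomas, so that the libraries with much Cldn2 held little Cldn15. Summed over all claudins, the level was 1310, 1433 and 1384 CPM per kilobase in the Apc1322T libraries. In the ApcMin libraries it was 1019, 1104 and 996 CPM per kilobase, below every Apc1322T library.

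**Figure D1:**
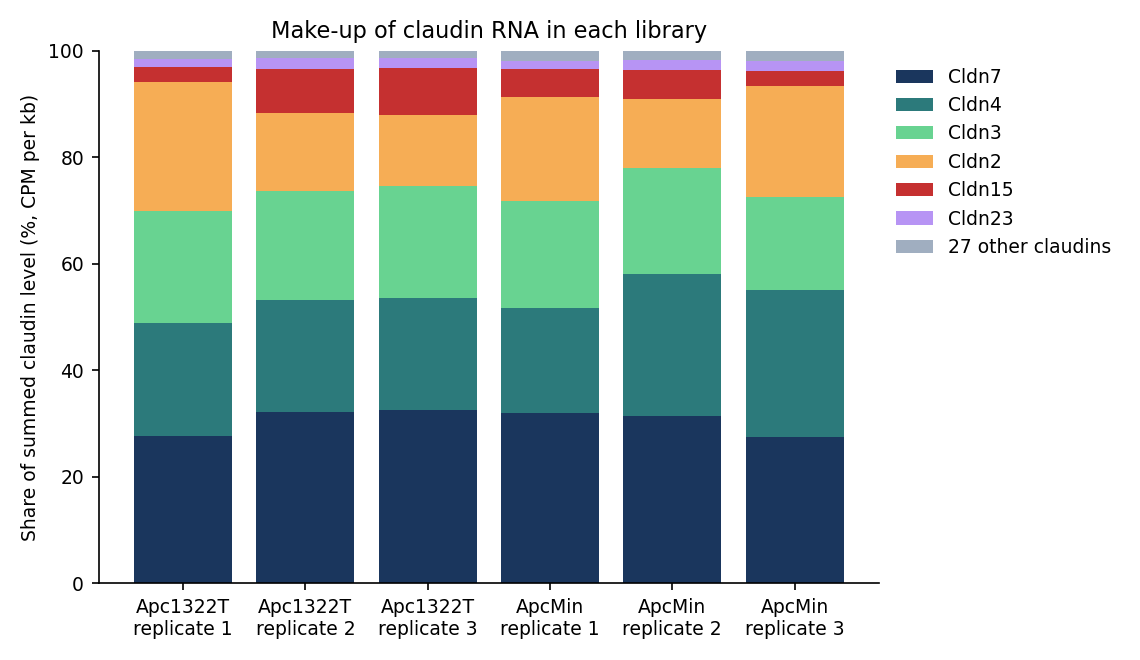
Share (%) of each claudin in the summed claudin level of a library, with CPM divided by exon length in kilobases. Each bar is 1 library, and 27 claudins of low level are drawn together. Cldn7, Cldn4, Cldn3 and Cldn2 fill most of each bar, and Cldn15 is widest in Apc1322T replicates 2 and 3 (8.20% and 8.91%).

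Differences between ApcMin and Apc1322T adenomas were tested by edgeR's quasi-likelihood method over 16536 genes, with a positive log2 fold change for higher RNA in ApcMin adenomas. All 10 tight junction genes had a negative log2 fold change under TMM scaling, as did 47.6% of all genes tested. When set against the epithelium markers, as described further on, 5 of the 10 turned positive. On that scale only 1498 of all 16536 genes had a negative value. Under TMM scaling the 10 values ran from -1.17 for Cldn1 to -0.10 for Tjp1. Their median was -0.40, beside a median of 0.017 for all genes tested. At an unadjusted p under 0.05, 5 of the 10 were lower in ApcMin adenomas (Cldn1, Cldn3, Cldn7, Cldn23 and F11r), a call made for 7.6% of all genes in that direction. For 4 of the 10 (Cldn1, Cldn3, Cldn7 and F11r) all ApcMin libraries lay below all Apc1322T libraries, which was so for 9.96% of all genes. None reached an adjusted p under 0.01 after Benjamini-Hochberg adjustment over all genes, and 0% of all genes did. The smallest adjusted p was 0.257, shared by Cldn1 and Cldn3. DESeq2's Wald test, by contrast, gave Cldn3 an adjusted p of 0.00924, the lowest of its alternatives (up to 0.693), and it called 0.771% of all genes at that threshold. The count of 5 changed when single libraries were left out, and so did the share of all genes lower at this p. The count was 2 without Apc1322T replicate 2 (2.99% of all genes), Apc1322T replicate 3 (3.86%) or ApcMin replicate 3 (4.67%). It was 3 without ApcMin replicate 1 (4.97%), 6 without ApcMin replicate 2 (6.07%) and 7 without Apc1322T replicate 1 (13.2%). Without both ApcMin libraries of high Fabp6, an alternative chosen after the data were seen, it was 3 (3.6% of all genes lower at this p) and the median -0.50. Cldn1, Cldn3, Cldn7 and F11r each had p = 0.10 when mean log2 CPM was compared by exact permutation (two-sided), which is the lower bound for 3 libraries against 3.

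**Figure D2:**
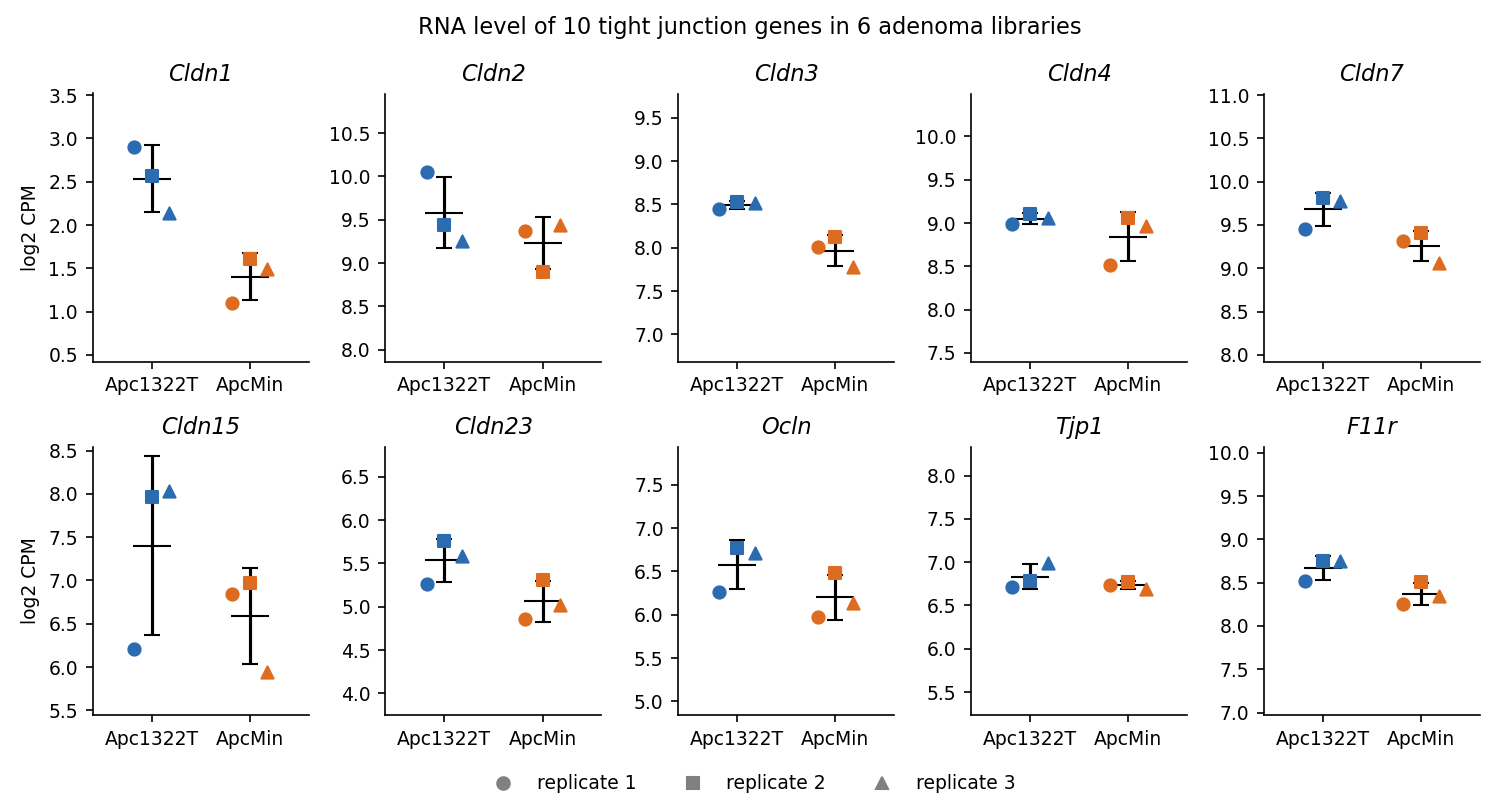
Log2 CPM of the 10 genes in each library, with the mean and SD of each genotype (n = 3). All panels span the same number of log2 units. The ApcMin libraries lie wholly below the Apc1322T libraries for Cldn1, Cldn3, Cldn7 and F11r, which is so under TMM scaling and not relative to the epithelium markers.

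Cldn3, a sealing claudin, gave the smallest p of the 10 genes. Its log2 CPM was 8.44, 8.53 and 8.52 in Apc1322T replicates 1, 2 and 3 and 8.01, 8.12 and 7.77 in ApcMin replicates 1, 2 and 3. The Apc1322T libraries were thus almost equal, and each ApcMin library was lower than all of them. Mean levels were 361 CPM in Apc1322T and 251 CPM in ApcMin adenomas. The log2 fold change was -0.52 (standard error 0.11, unadjusted p = 0.00258, adjusted p = 0.257 with edgeR's quasi-likelihood test). It stayed between -0.60 and -0.43 when any 1 library was left out, and was -0.11 (unadjusted p = 0.487) relative to the epithelium markers. Cldn3 lies on chromosome 5 of GRCm38 from 134986214 to 134987472 and shares 40 exonic bases with an antisense gene, Wbscr25, and the library kit kept the strand.

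Cldn4, its close relative, is the next gene on chromosome 5 (134945119 to 134946934), transcribed in the opposite direction. The annotated starts are 39280 bases apart, with 0 annotated genes between them. In spite of this closeness, Cldn4 differed less between the genotypes. Its log2 CPM was 8.98, 9.11 and 9.05 in Apc1322T and 8.52, 9.05 and 8.96 in ApcMin adenomas. Only ApcMin replicate 1 stood clearly below the rest, and its log2 fold change, -0.19 (standard error 0.15), carried an unadjusted p of 0.257 with edgeR. The log2 ratio of Cldn3 to Cldn4 counts within a library was -0.54, -0.58 and -0.54 in Apc1322T replicates 1, 2 and 3. In the ApcMin libraries it was -0.51, -0.93 and -1.19. ApcMin replicate 1 matched the Apc1322T libraries in this ratio, while the other two were lower, and the genotypes did not differ beyond their spread (exact permutation test, two-sided, p = 0.40). Cldn13, the claudin gene 29593 bases beyond Cldn4, had 4 counts in ApcMin replicate 3 and 0 in every other library.

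The promoters of the 4 most abundant claudins and of Cldn1 are shown because these genes carry most of the claudin RNA or differ most. RefSeq promoter windows on GRCm38.p6 matched 9 of the 10 genes by symbol (not Cldn23). The window nearest to the annotated 5′ end was used, and the 250 bases before the transcription start are given 5′ to 3′ on the coding strand.
Cldn7, chr11:69964529-69964778, plus strand: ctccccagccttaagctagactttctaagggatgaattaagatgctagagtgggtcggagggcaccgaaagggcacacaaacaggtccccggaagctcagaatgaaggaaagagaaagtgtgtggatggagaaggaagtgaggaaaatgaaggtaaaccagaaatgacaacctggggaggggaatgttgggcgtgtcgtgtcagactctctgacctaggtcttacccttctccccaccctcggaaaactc
Cldn4, chr5:134946935-134947184, minus strand: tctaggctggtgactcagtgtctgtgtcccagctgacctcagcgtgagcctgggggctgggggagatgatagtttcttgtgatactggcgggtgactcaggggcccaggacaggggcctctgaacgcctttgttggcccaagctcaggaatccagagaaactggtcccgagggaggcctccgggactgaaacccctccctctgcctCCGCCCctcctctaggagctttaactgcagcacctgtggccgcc
Cldn3, chr5:134985964-134986213, plus strand: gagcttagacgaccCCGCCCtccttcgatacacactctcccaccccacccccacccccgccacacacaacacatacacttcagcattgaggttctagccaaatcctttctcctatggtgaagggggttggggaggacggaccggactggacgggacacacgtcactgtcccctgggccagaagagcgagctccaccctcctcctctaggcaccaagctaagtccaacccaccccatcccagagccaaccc
Cldn2, chrX:139800558-139800807, plus strand: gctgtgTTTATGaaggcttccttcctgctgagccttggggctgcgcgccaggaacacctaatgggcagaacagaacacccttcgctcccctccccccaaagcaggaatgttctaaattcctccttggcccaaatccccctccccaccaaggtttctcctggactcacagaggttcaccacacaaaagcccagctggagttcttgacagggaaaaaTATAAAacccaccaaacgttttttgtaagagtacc
Cldn1, chr16:26371840-26372089, minus strand: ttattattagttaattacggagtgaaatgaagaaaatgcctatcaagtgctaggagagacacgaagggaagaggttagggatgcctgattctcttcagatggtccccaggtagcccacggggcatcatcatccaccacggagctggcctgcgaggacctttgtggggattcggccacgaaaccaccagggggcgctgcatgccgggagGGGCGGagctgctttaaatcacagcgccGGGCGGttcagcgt
Capitals mark matches, on either strand, to any of 5 short motifs that were searched in these bases. They were CTTTGA for Tcf/Lef factors (the partners of β-catenin), TTTATG for Cdx, AGATAA for GATA factors, GGGCGG for Sp/Klf factors and TATAAA for the TATA box. GGGCGG was found in 7 of the 9 promoters (Cldn1, Cldn3, Cldn4, Cldn15, Ocln, Tjp1 and F11r) and in 32.7% of all 32851 promoter windows. The bases G and C made up 55.6% to 64% of these 7, against a median of 52.4% in all windows. The transcription starts used for Cldn15 and Tjp1 lay 1253 and 156537 bases from the annotated 5′ end of the gene. Cldn2 held TATAAA 35 bases before its start, a motif in 12.4% of all windows, and TTTATG 244 bases before it (10.8% of all windows). Neither CTTTGA nor AGATAA was found in any of the 9, against 13.8% and 9.99% of all windows, which says only that these letters are not in these bases. Cldn7 had no match to any of the 5 motifs. No overlapping matches occurred within the printed promoters.

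Cldn7, the most abundant of these claudins and a partner of EpCAM, was also lower in every ApcMin library under TMM scaling, whereas relative to the epithelium markers its log2 fold change was -0.00094. The log2 CPM was 9.46, 9.81 and 9.77 in Apc1322T and 9.31, 9.40 and 9.06 in ApcMin adenomas. The gap between the nearest libraries (Apc1322T replicate 1 and ApcMin replicate 2) was small. Its log2 fold change, -0.42 (standard error 0.14), carried an unadjusted p of 0.0225 with edgeR. The gene lies on chromosome 11 from 69964779 to 69967885.

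Cldn1 showed the lowest level and the largest difference of the 10. It had 202, 123 and 99 counts in Apc1322T replicates 1, 2 and 3 and 74, 76 and 87 counts in ApcMin replicates 1, 2 and 3. On the log2 CPM scale these were 2.90, 2.57 and 2.14 against 1.10, 1.61 and 1.497, without overlap. The log2 fold change was -1.17 (standard error 0.28, unadjusted p = 0.00419 with edgeR, adjusted p = 0.0116 with DESeq2, the lowest of its alternatives, which reached 0.693). Relative to the epithelium markers it was -0.80 (standard error 0.35), and the unadjusted p was then 0.0505. The libraries overlapped on that scale. Cldn1 lies on chromosome 16 from 26356642 to 26371841.

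Cldn23 (chromosome 8, 35824712 to 35826559) had log2 CPM values of 5.27, 5.75 and 5.58 in Apc1322T and 4.85, 5.31 and 5.02 in ApcMin adenomas. ApcMin replicate 2 lay just above Apc1322T replicate 1, so that the genotypes overlapped by a narrow margin. Its log2 fold change was -0.47 (standard error 0.17) under TMM scaling, with an unadjusted p of 0.0267 with edgeR, and -0.052 (unadjusted p = 0.746) relative to the epithelium markers.

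The pore-forming claudins differed more between libraries of a genotype than between the genotypes. Cldn2 lies on chromosome X (139800828 to 139811386). Its log2 CPM was 10.05, 9.45 and 9.25 in Apc1322T replicates 1, 2 and 3 and 9.38, 8.89 and 9.44 in ApcMin replicates 1, 2 and 3. Apc1322T replicate 1 was the highest library and the others were mixed. Its log2 fold change, -0.37 (standard error 0.25), carried an unadjusted p of 0.179 with edgeR. Without Apc1322T replicate 1 it shrank to -0.094.

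Cldn15 lies on chromosome 5 (136966616 to 136975858) and had the widest range of the 10, 2.09 log2 units from the lowest to the highest library. The log2 CPM was 6.21, 7.97 and 8.03 in Apc1322T replicates 1, 2 and 3 and 6.84, 6.97 and 5.95 in ApcMin replicates 1, 2 and 3. Apc1322T replicate 1 thus resembled the ApcMin libraries, and the genotypes overlapped. The log2 fold change was -0.96 (standard error 0.51), with an unadjusted p of 0.110 with edgeR. Without Apc1322T replicate 1 it was -1.34, with an unadjusted p of 0.00947 and an adjusted p of 0.0999 in the same test, the lowest of its alternatives (up to 0.762).

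The balance between both pore claudins was read as the log2 ratio of Cldn2 to Cldn15 counts. It was 3.84, 1.48 and 1.22 in Apc1322T replicates 1, 2 and 3 and 2.53, 1.92 and 3.49 in ApcMin replicates 1, 2 and 3. The ratio was highest in Apc1322T replicate 1 and ApcMin replicate 3, so that it did not follow the genotype (exact permutation test, two-sided, p = 0.60). The mean log2 CPM of 10 enterocyte markers, genes of mature absorptive cells such as Alpi and Sis, was 9.03, 10.54 and 10.68 in Apc1322T and 9.06, 9.91 and 8.12 in ApcMin adenomas. It was lowest in ApcMin replicate 3, followed by Apc1322T replicate 1 and ApcMin replicate 1. The 6 libraries fell in the same order by this mean and by Cldn15, and libraries with a high Cldn2 to Cldn15 ratio had a low mean. Single markers could differ from that order. Alpi measured 10.67, 11.49 and 10.58 log2 CPM in Apc1322T and 10.15, 9.62 and 11.12 in ApcMin adenomas. Under TMM scaling all 10 enterocyte markers had a negative log2 fold change (median -0.84), as did 47.6% of all genes. Between genotypes 0 of them were without overlap, beside 9.96% of all genes on the lower and 11% on the higher side. Their part in the Cldn15 values was not tested.

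**Figure D3:**
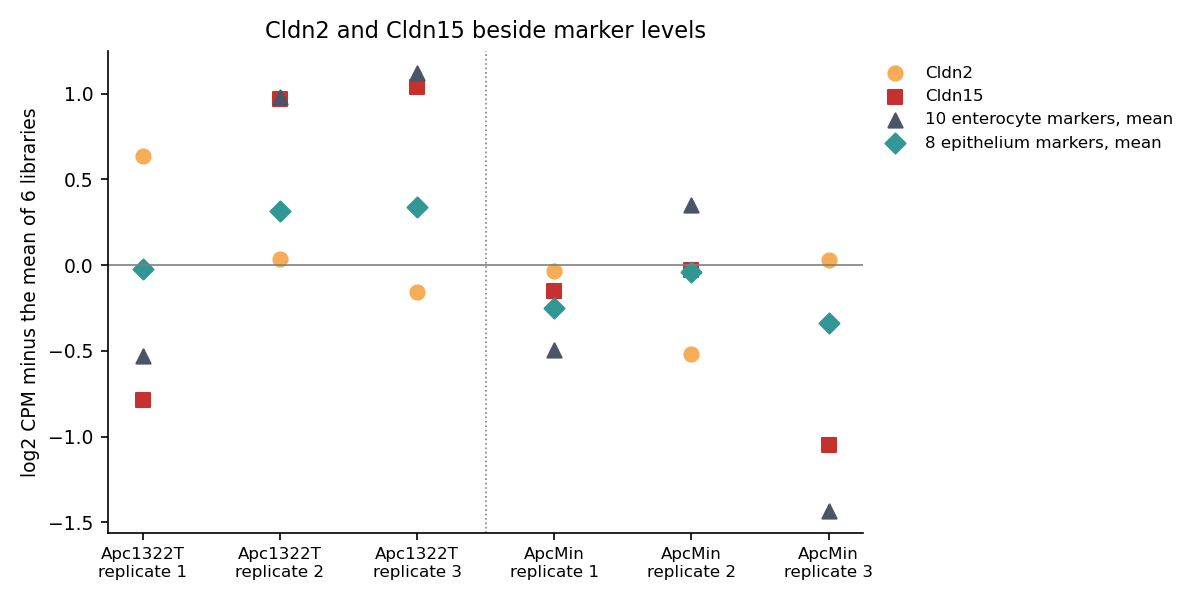
Log2 CPM of Cldn2 and Cldn15 and the mean log2 CPM of 10 enterocyte and 8 epithelium markers, each minus its own mean over the 6 libraries, with the libraries along the horizontal axis. Cldn15 and the mean of the enterocyte markers are high together in Apc1322T replicates 2 and 3 and low in Apc1322T replicate 1 and ApcMin replicate 3.

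Ocln, Tjp1 and F11r differed less than most claudins. F11r, on chromosome 1 from 171437535 to 171464603, had a log2 CPM of 8.52, 8.75 and 8.75 in Apc1322T and 8.26, 8.50 and 8.35 in ApcMin adenomas. The genotypes were narrowly parted, and the log2 fold change was -0.30 (standard error 0.11, unadjusted p = 0.0331 with edgeR) under TMM scaling, against 0.12 relative to the epithelium markers. Ocln (chromosome 13, 100496507 to 100552718) measured 6.26, 6.77 and 6.71 log2 CPM in Apc1322T and 5.98, 6.48 and 6.14 in ApcMin adenomas, with overlap. Its log2 fold change was -0.38 (standard error 0.18), with an unadjusted p of 0.0773. Tjp1, the scaffold gene (chromosome 7, 65296165 to 65527781), was the steadiest of the 10. All its libraries lay between 6.69 and 6.99 log2 CPM, and its log2 fold change, -0.10, barely exceeded the standard error of 0.096.

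The epithelium markers differed between the genotypes in the same direction, with a similar median but by unequal amounts. All 8 had a negative log2 fold change (47.6% of all genes), from -0.81 for Krt20 to -0.077 for Krt18, with a median of -0.39. For 4 of them (Epcam, Krt8, Krt19 and Lgals4) the libraries did not overlap, beside 9.96% of all genes. The mean log2 CPM of the 8 was 10.996 ± 0.20 (SD, n = 3) in Apc1322T and 10.58 ± 0.16 (SD, n = 3) in ApcMin adenomas. All 7 stroma, 8 endothelium and 6 smooth muscle markers, in turn, had a positive log2 fold change (medians 1.00, 0.36 and 0.69). Of the 8 immune markers 7 were positive.

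When each library was scaled to its epithelium markers instead, the median log2 fold change of the 10 tight junction genes moved from -0.40 to 0.012, and that of all genes from 0.017 to 0.43. On this scale 0 of the 10 passed an unadjusted p under 0.05 in either direction, whereas 0.417% of all genes did so as lower and 30.6% as higher in ApcMin adenomas. Cldn2, Cldn4, Ocln, Tjp1 and F11r then had positive values, at 0.024, 0.22, 0.044, 0.32 and 0.12. Cldn3, Cldn7 and Cldn23 were close to 0, at -0.11, -0.00094 and -0.052. Cldn1 and Cldn15 remained the lowest, at -0.80 and -0.49, each with a standard error of at least 0.35. Tjp1 was the single gene without overlap on this scale, with all ApcMin libraries above all Apc1322T libraries (unadjusted p = 0.0590 with edgeR), which held for 33.7% of all genes.

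**Figure D4:**
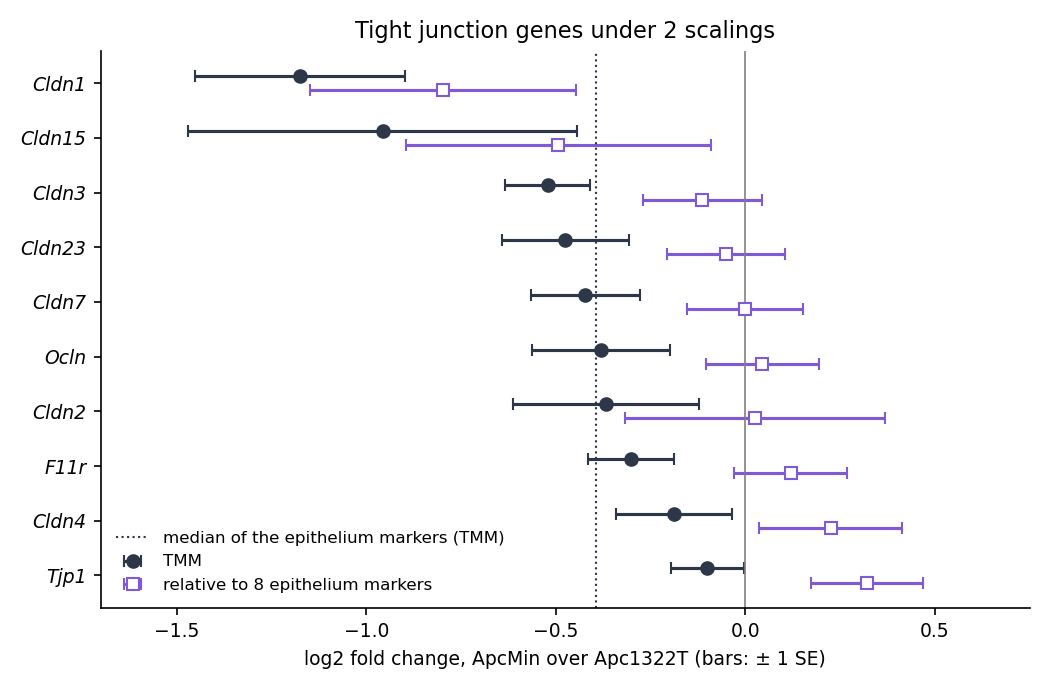
Log2 fold change (ApcMin over Apc1322T) with its standard error for the 10 genes, under TMM scaling (filled circles) and relative to the mean of 8 epithelium markers (open squares). The dotted line is the median of the epithelium markers under TMM scaling (-0.39). Every filled circle lies below 0, and the open squares of Cldn2, Cldn4, Ocln, Tjp1 and F11r lie above it.

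The rest of the claudin family was searched with a list of 28 other claudins, of which 26 were in the table. Only 6 of these passed the filter on low counts, and 20 did not, with at most 12 counts in any library. Of the 20, 9 had 0 counts throughout, which allows a level of up to 0.0895 to 0.130 CPM (3 counts in a library, counting error only). Cldn12 was the most abundant of the 6, with mean log2 CPM values of 5.75 and 5.60 in Apc1322T and ApcMin adenomas. The median log2 fold change of the 6 was 0.33. At an unadjusted p under 0.05, 1 of the 6 was higher in ApcMin adenomas (7.49% of all genes) and 0 were lower. This was Cldn6, a claudin of embryonic epithelia. It had 32, 21 and 24 counts in Apc1322T replicates 1, 2 and 3 and 93, 51 and 165 counts in ApcMin replicates 1, 2 and 3. No ApcMin library came as low as any Apc1322T library, which held in that direction for 11% of all genes. Its log2 fold change, 1.603 (standard error 0.41), went with an unadjusted p of 0.00652 with edgeR and an adjusted p of 0.0335 with DESeq2 (up to 0.693 among its alternatives). Cldn5, the claudin of endothelial cells, was at 0.53 (standard error 0.34), and Cldn18, a claudin of the stomach, at -0.81 (standard error 0.38). The libraries of both overlapped between genotypes.

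Proteins that share the junction membrane with claudins were represented by 11 genes, all of which passed the filter. Of these, 4 were lower and 2 higher in ApcMin adenomas at an unadjusted p under 0.05 under TMM scaling. Among all genes, 7.6% were lower and 7.49% higher by the same call. Relative to the epithelium markers the 4 lower ones turned positive. That scaling moved the median of all genes from 0.017 to 0.43, so the change of sign is no separate result. Under TMM scaling the median log2 fold change of the 11 genes was -0.015. Libraries did not overlap for Lsr, Cxadr and Igsf5 on the lower side (9.96% of all genes) and for Ildr1, Ildr2 and Jam2 on the higher side (11% of all genes), although Jam2, a gene of the JAM family named after its values were seen, had an unadjusted p of 0.0563 with edgeR. Lsr, Ildr1 and Ildr2 encode the angulins, which draw tricellulin to the points where 3 cells meet. Lsr, the most abundant of them, had a log2 CPM of 8.67, 8.69 and 8.67 in Apc1322T and 8.38, 8.49 and 8.34 in ApcMin adenomas (log2 fold change -0.27, standard error 0.086, turning positive relative to the epithelium markers). Its relatives went the other way. Ildr1 measured 3.90, 3.36 and 3.46 in Apc1322T and 3.92, 4.18 and 4.46 in ApcMin adenomas (log2 fold change 0.61, standard error 0.20), where the lowest ApcMin library barely cleared the highest Apc1322T library.

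Ildr2 had the smallest p of all listed junction genes. It had 59, 36 and 28 counts in Apc1322T replicates 1, 2 and 3 and 166, 188 and 220 counts in ApcMin replicates 1, 2 and 3. Every ApcMin library was well above every Apc1322T library. The log2 fold change was 1.89 (standard error 0.31, unadjusted p = 0.000546, adjusted p = 0.257 with edgeR), and DESeq2's Wald test gave an adjusted p of 2.96e-05 (up to 0.693 among the alternatives). The 8 squamous markers summed to 9.69 to 11.9 CPM in Apc1322T and 36.7 to 48.1 CPM in ApcMin adenomas. Krt14 alone had mean levels of 3.82 and 21.7 CPM, while Dsg3 went the other way (log2 fold change -0.81). Of the genes that define squamous tissue, Krt5 had at most 14 counts and Trp63 at most 13 in any library. The part of such tissue in the values of Ildr2 and Cldn6 was not tested. Relative to the epithelium markers the log2 fold change of Ildr2 was 2.27. Cxadr, an adhesion molecule that also serves as a virus receptor, had a log2 fold change of -0.32 (standard error 0.11), and Igsf5, a relative of JAM-A, of -0.31 (standard error 0.098). Crb3, a gene of the polarity complex at the apical membrane, was at -0.35 with overlapping libraries. All 3 of these values turned positive relative to the epithelium markers. Marveld2, the gene of tricellulin itself, differed by -0.015, less than its standard error of 0.10.

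Genes of the cytoplasmic plaque beneath the junction were listed next. All 23 listed plaque and polarity genes passed the filter, and their median log2 fold change was -0.055, with values from -0.37 to 0.60. At an unadjusted p under 0.05, 1 was lower (Tjp3, which encodes ZO-3) and 1 higher (Amot, angiomotin) in ApcMin adenomas, beside 7.6% and 7.49% of all genes. Tjp3 measured 7.51, 7.77 and 7.69 log2 CPM in Apc1322T and 7.44, 7.41 and 7.17 in ApcMin adenomas, without overlap (log2 fold change -0.32, standard error 0.11), and turned positive relative to the epithelium markers. Amot measured 5.11, 4.73 and 5.10 against 5.17, 5.42 and 5.63, also without overlap (log2 fold change 0.43, standard error 0.16).

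**Figure D5:**
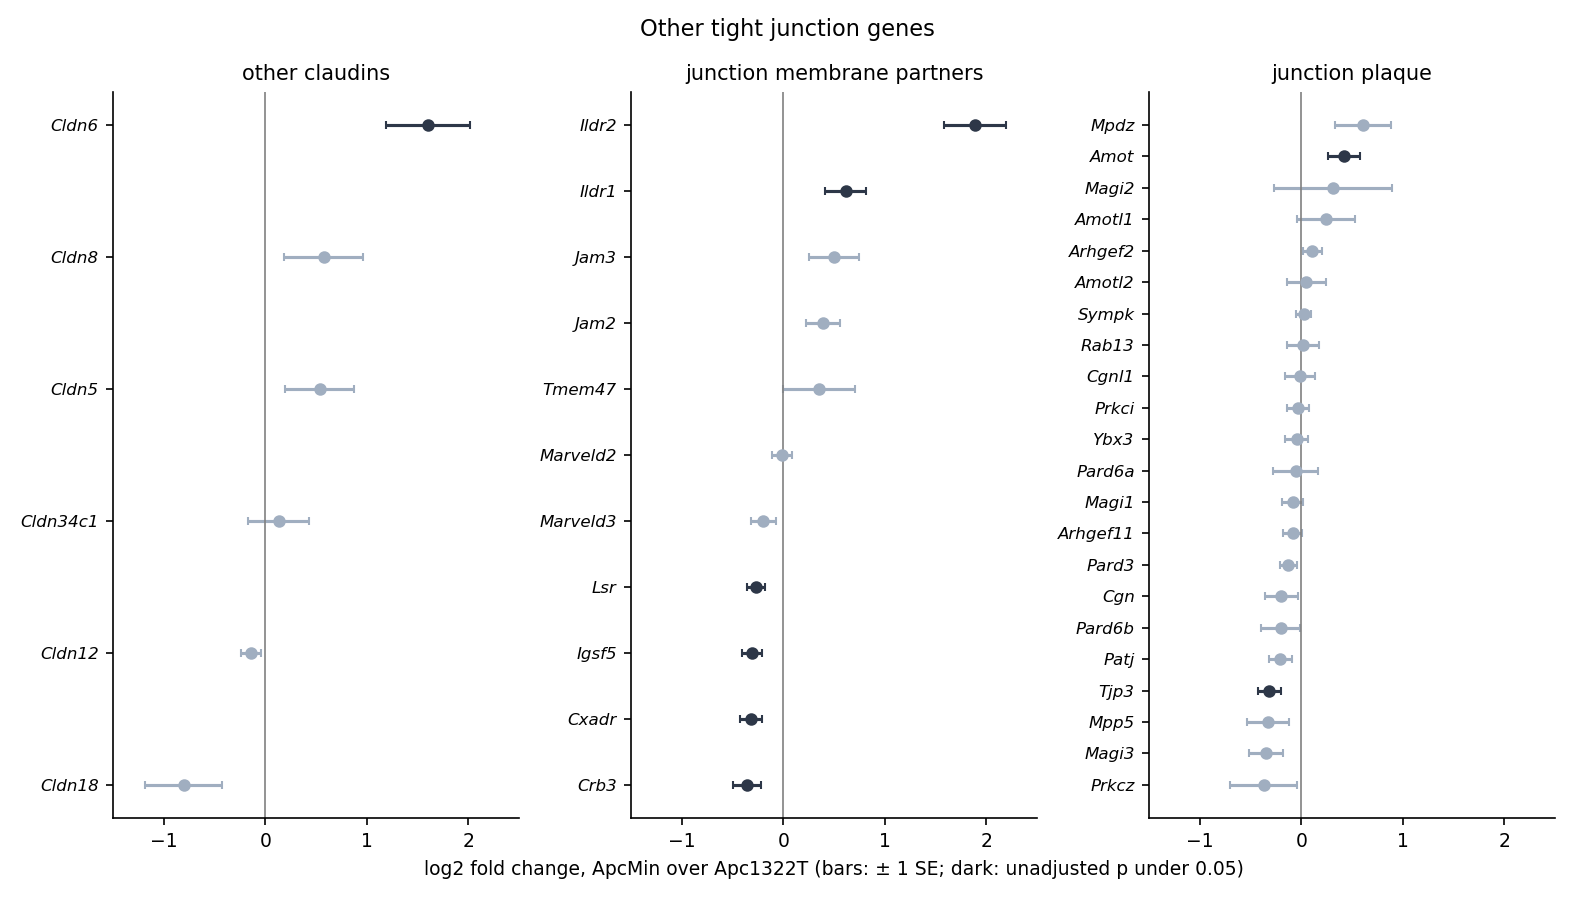
Log2 fold change (ApcMin over Apc1322T, TMM scaling) with its standard error for the tested genes of 3 further tight junction lists, with 1 plaque gene left out. Dark points have an unadjusted p under 0.05 with edgeR, namely Cldn6, Ildr2, Ildr1 and Amot above 0 and Lsr, Igsf5, Cxadr, Crb3 and Tjp3 below 0. The last 5 are below 0 under TMM scaling and above 0 relative to the epithelium markers, where the median of all genes is 0.43.

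Transcription factors known to maintain the intestinal epithelium were listed beside them, together with Snai1, Snai2 and Zeb1, which repress epithelial genes. Of these 16, repressors included, all were tested and 12 had a negative log2 fold change. At an unadjusted p under 0.05, 5 were lower and 0 higher in ApcMin adenomas. Among all genes 47.6% were negative, 7.6% lower and 7.49% higher by the same calls. The 4 factors without overlap (9.96% of all genes) included Cdx2, Gata6 and Elf3, with log2 fold changes of -0.50, -0.29 and -0.27 under TMM scaling and of -0.082, 0.13 and 0.15 relative to the epithelium markers. Cdx2, a factor that sets intestinal identity, had a log2 CPM of 6.90, 7.20 and 7.24 in Apc1322T and 6.77, 6.84 and 6.19 in ApcMin adenomas. Hnf4a overlapped (log2 fold change -0.53, standard error 0.20, and -0.10 relative to the epithelium markers). Snai1, Snai2 and Zeb1, repressors of epithelial genes, were low in all libraries, and their log2 fold changes of 0.70, -0.017 and 0.52 had unadjusted p-values of 0.208, 0.958 and 0.0748 with edgeR.

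For the 3 tight junction genes whose log2 CPM ranged over more than 1 unit, the genes with the closest profile over the 6 libraries were sought among all genes tested. Likeness was the root mean square difference between the profiles after each was centred on its own mean. Closest to Cldn15 were Synpo (0.10 log2 units), Rtn4r (0.11) and Lipe (0.12). Synpo, which encodes an actin-associated protein, measured 4.82, 6.38 and 6.54 log2 CPM in Apc1322T and 5.50, 5.67 and 4.63 in ApcMin adenomas, with the same low libraries as Cldn15. Closest to Cldn2 were Hgfac (0.069), Slit2 (0.070) and Cd320 (0.078). Closest to Cldn1 were Gpr63 (0.13), Trpv4 (0.23) and Acot6 (0.24). Only 6 libraries enter each profile, and whether such likeness exceeds that of other genes was not tested.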

How the data were processed

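Adenoma RNA had been sequenced with a directional kit as single-end reads, with 3 libraries of each genotype. The authors quantified transcripts by Salmon against GRCm38, summed them to genes with tximport and deposited estimated counts per gene that were neither normalised nor scaled by length.

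The estimated counts were rounded. Symbols, positions and exon lengths came from GENCODE M21, and 34652 of 34866 genes had a symbol. Genes were kept with filterByExpr (minimum count 10, minimum total 15) and normalised by TMM. Genotype was tested by glmQLFTest after a robust glmQLFit (edgeR 4.0.16, R 4.3.3), with Benjamini-Hochberg adjustment over 16536 genes at 0.01. The standard error was the log2 fold change divided by the root of its F statistic. Log2 CPM used a prior count of 2. DESeq2 1.42.0, limma-voom (limma 3.58.1), other scalings and filters, a block on the replicate number and left-out libraries were alternatives. The procedures were tested on simulated counts. Depth bounds precision only for genes of few counts, where 3 counts equal 0.0895 to 0.130 CPM.

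The genes studied and the gene lists were chosen with earlier results of these data known. Named were every gene studied, those of each further junction or factor list at an unadjusted p under 0.05 without overlap of the libraries, and the 3 closest profiles. Cldn5, Cldn12, Cldn13, Cldn18, Crb3, Hnf4a, Jam2, Marveld2, Snai1, Snai2, Zeb1, Fabp6, Krt14 and Dsg3 were named after their values were seen. So were Krt18, Krt20, Slc10a2, Mep1a, Slc51a, Slc51b and Cubn. Some genes of these lists are counted with them but not reported here by name.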

Additional observations from a re-analysis of the deposited data

How the results depend on the processing

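The 10 log2 fold changes kept their direction in 155 of 160 values from 16 alternatives. The 5 exceptions all came from scaling to the epithelium markers. They were 0.024 for Cldn2, 0.22 for Cldn4, 0.044 for Ocln, 0.32 for Tjp1 and 0.12 for F11r. The median was then 0.012 for the 10 genes and 0.43 for all genes tested. That scale was used for the counts only after the data were seen. On it 0 of the 10 had an unadjusted p under 0.05 and 1 was without overlap, against 31% and 34.2% of all genes. DESeq2's Wald test called 1 of the 10 at an adjusted p under 0.01. When single libraries were left out, the count at an unadjusted p under 0.05 ranged from 2 to 7 for the 10 genes. It ranged from 1 to 2 for the other claudins, from 1 to 6 for the membrane partners and from 0 to 6 for the plaque genes. Among all genes this share ranged from 6.92% (without Apc1322T replicate 2) to 24.4% (without Apc1322T replicate 1). The count without overlap ranged from 4 to 8 for the 10 genes (8 without Apc1322T replicate 1, where 23.1% of all genes were lower without overlap). Without ApcMin libraries 1 and 2 these counts were 3 and 9 for the 10 genes (3.6% and 29.3% of all genes lower), where only 1 ApcMin library remained and its spread was assumed to be that of the others. The other claudins had 2 at an unadjusted p under 0.05 with DESeq2, limma-voom or the replicate block (11.5%, 13.8% and 12.8% of all genes). The plaque genes had 1 with upper quartile scaling (14.5% of all genes). The deviations of same-numbered libraries had correlations over genes of -0.0139, 0.164 and -0.286. With deviations taken from the mean of only 3 libraries per genotype, these values cannot exclude a pairing. The labels gave none, and the libraries were taken as unpaired. With the number as a block 6 of the 10 genes had an unadjusted p under 0.05 (12.8% of all genes), against 5 without it (15.1% of all genes). The order of levels per length kept 1 of 10 places with the median transcript length. The cause of these shifts was not tested. Low counts limit the precision for Cldn1, Cldn6 and Ildr2.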

Other observations

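The other marker lists are given by their summed level. The 7 crypt base markers, such as Lgr5 and Olfm4, summed to 711 to 888 CPM in Apc1322T and 765 to 830 CPM in ApcMin adenomas. The 6 Paneth cell markers summed to 1598 to 2709 CPM and 2552 to 2906 CPM, and the 7 goblet cell markers to 6303 to 9596 CPM and 4304 to 6478 CPM. For the 10 enterocyte markers the ranges were 15910 to 28180 CPM and 9696 to 20230 CPM. The 6 markers of the distal small intestine summed to 82.5 to 261 CPM in Apc1322T and 71.6 to 488 CPM in ApcMin adenomas, and the 9 gastric markers to 857 to 1741 CPM and 577 to 1357 CPM. The 8 endothelium markers summed to 126 to 200.4 CPM and 183 to 271 CPM, the 6 smooth muscle markers to 127 to 255 CPM and 276 to 402 CPM, and the 8 immune markers to 107 to 123 CPM and 112 to 394 CPM.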
